A study of Homo sapiens with 8 samples.

Results

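In NB4 cells, 60 genes had lower RNA levels after KDM3B knockdown both without and with all-trans retinoic acid (ATRA). They were chosen by their CPM (the count of a gene divided by all counts on genes of that library, times 1000000). In each treatment, the higher of the knockdown libraries had to be at most the lower of the control libraries divided by 1.5, and every control library had to reach 2 CPM. KDM3B itself and names that are clone accessions were left out. Of the 37526 gene names found in every library, 9813 met the level required in the controls. Of these, 154 (1.57%) passed without ATRA, 278 (2.83%) passed with ATRA and 60 (0.611%) passed in both. The knockdown differences of these genes chose them, so those differences are described below and are not tested.

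The series holds 8 RNA-seq libraries of NB4, a cell line from acute promyelocytic leukaemia (APL) that carries the PML-RARα fusion, with 2 libraries in each of 4 groups. Scramble cells, whose control the labels call an empty vector and the study a scrambled hairpin, and shKDM3B cells, which express a hairpin against KDM3B, were both made by stable transduction of pLVX-shRNA2-puro. Both were sequenced without ATRA and with 1 µM ATRA (scramble+ATRA and shKDM3B+ATRA), for which the labels name 24 or 48 h without saying which library had which time. The labels do not give the hairpin behind each library or say whether the replicates were separate cultures, so the errors below measure the spread between these libraries, which may be technical.

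KDM3B is a nuclear enzyme that removes methyl groups from H3K9, a chromatin mark tied to silent genes. NB4 cells are arrested as promyelocytes, and ATRA releases the arrest and drives them towards granulocytes. Maturing granulocytes and monocytes switch on the NADPH oxidase that makes superoxide, the receptors that sense microbes and cytokines together with the ITAM adaptors that carry their signals, and secreted mediators, all of which have representatives among the 60 genes.

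Between 9708739 and 33017787 read pairs lay on genes in a library. KDM3B was at 189 and 189 CPM in the scramble libraries and at 76.4 and 85.0 CPM in the shKDM3B libraries. In treated libraries it was at 190 and 113 CPM in scramble cells and at 51.3 and 55.3 CPM in shKDM3B cells. The share of read pairs outside genes was 8.49 to 9.62% in all untreated libraries and in scramble+ATRA replicate 1, but 50 to 51.4% in scramble+ATRA replicate 2 and both shKDM3B+ATRA libraries. The files of the treated libraries also list another set of names than those of the untreated libraries. The part of these differences in the results was not tested, and values against each scramble+ATRA library alone are given below. Of 8 promyelocyte markers, MPO, CTSG, CD33 and CD38 reached 2 CPM, whereas ELANE and KIT stayed under 1 CPM in every library. The summed promyelocyte markers, mostly MPO, were at 4616 to 5684 CPM in scramble, 8699 to 9754 in shKDM3B, 1089 to 1259 in scramble+ATRA and 2769 to 3577 in shKDM3B+ATRA. The sum followed MPO, at 4329 and 5383, 8348 and 9395, 705 and 575, and 3059 and 2142 CPM in the same order of groups, and not every marker was higher in the knockdown. With ATRA, CTSG was at 3.97 and 2.15 CPM in scramble and 1.96 and 1.65 in shKDM3B cells, and CD33 at 107 and 82.1 against 89.4 and 96.2 CPM. Their part in the results was not tested. Of the markers of other cells, the erythroid genes HBB and HBA1 were at 0 in every library, no T cell or fibroblast marker reached 2 CPM, and the markers that did included CD79A, NCAM1 and EPCAM. In bulk RNA, fewer cells of a type cannot be told apart from less RNA per cell.

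The RefSeq promoter table of GRCh38.p14 held 43 of the 60 genes, with 68 windows of 300 bases that run from 250 bases before to 50 bases after a transcription start. Windows were searched on both strands for 6 motifs, and the core of PU.1, an ETS factor of the myeloid lineage, had the highest share relative to that in all windows. The PU.1 core GAGGAAGT was present in 8.82% of the 68 windows (6 windows of 5 genes) and in 2.59% of all 35116 windows of the table. The upstream 250 bases of these 5 genes are printed 5′ to 3′ on the strand of the gene because they hold this core, and those of CYBB because CYBB had the highest level among the 60. Capitals mark the PU.1 core (GAGGAAGT or its reverse ACTTCCTC), the AGGTCA element of retinoic acid response sites in TYROBP, and the GATA core AGATAA, in reverse as TTATCT, in CYBB. BCL2A1, a survival protein of the BCL-2 family, on the minus strand at chr15:79971197-79971446:
BCL2A1: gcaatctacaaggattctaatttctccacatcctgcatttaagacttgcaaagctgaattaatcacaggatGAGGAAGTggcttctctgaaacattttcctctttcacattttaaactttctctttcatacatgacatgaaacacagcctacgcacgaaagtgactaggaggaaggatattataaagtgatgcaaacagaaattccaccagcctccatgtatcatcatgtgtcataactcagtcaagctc
NCF1, the cytosolic organiser of the NADPH oxidase, on the plus strand at chr7:74773761-74774010:
NCF1: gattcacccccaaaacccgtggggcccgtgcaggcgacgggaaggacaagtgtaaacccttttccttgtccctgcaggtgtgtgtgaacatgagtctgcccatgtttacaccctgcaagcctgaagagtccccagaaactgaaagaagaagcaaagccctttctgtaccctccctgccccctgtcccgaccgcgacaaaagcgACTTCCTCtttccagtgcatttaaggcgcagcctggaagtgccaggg
TYROBP, an ITAM adaptor, on the minus strand at chr19:35908296-35908545:
TYROBP: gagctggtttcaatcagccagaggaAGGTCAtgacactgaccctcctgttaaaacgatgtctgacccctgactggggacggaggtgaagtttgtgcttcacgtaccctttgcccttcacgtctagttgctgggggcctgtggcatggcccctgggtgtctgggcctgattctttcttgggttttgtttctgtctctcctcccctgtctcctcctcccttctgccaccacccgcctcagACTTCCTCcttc
DENND1C, an exchange factor of vesicle traffic, on the minus strand at chr19:6481788-6482037:
DENND1C: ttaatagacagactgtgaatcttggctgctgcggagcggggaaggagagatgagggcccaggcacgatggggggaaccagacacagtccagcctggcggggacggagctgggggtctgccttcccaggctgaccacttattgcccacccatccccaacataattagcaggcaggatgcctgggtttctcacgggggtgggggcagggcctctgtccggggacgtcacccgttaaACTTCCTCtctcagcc
ARHGAP25, a Rac-directed GTPase-activating protein of phagocytes, on the plus strand at chr2:68734561-68734810:
ARHGAP25: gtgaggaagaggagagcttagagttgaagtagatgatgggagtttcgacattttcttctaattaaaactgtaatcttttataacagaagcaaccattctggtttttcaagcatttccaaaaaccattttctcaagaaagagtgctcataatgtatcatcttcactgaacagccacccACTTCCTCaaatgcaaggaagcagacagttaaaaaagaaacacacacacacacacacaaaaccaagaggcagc
CYBB, the catalytic subunit of the NADPH oxidase, on the plus strand at chrX:37779809-37780058:
CYBB: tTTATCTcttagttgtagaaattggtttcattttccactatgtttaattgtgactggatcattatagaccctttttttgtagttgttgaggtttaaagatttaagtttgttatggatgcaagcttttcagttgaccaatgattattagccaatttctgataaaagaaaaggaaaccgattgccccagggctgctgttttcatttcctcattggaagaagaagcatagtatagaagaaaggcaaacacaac
The first base of the core, read along the gene, lay 179 bases before the start in BCL2A1, 47 in NCF1, 12 in TYROBP, 16 in DENND1C and 73 in ARHGAP25. ARHGAP25 held the core in a further window that is not printed. The other motifs were as follows. The element AGGTCA was in 13.2% of the members' windows and 13.8% of all windows, the AP-1 site TGANTCA in 7.35% and 7.71%, the GATA core AGATAA in 14.7% and 10.3%, the CCAAT box CCAAT in 19.1% and 34.6%, and the E-box CACGTG in 1.47% and 7.26%. These are matches of letters, not sites of binding. The windows of the table are not limited to genes expressed in NB4. Shares among the 9813 genes at the control level, from which the members came, were not computed.

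Most of the 60 genes were expressed at low levels, and a few were among the well-expressed genes of the cell. Mean levels in scramble cells ran from 2.05 CPM (PNPLA1) to 329 CPM (CYBB), with a median of 7.82 CPM, and 35 genes were under 10 CPM. In shKDM3B cells the median was 2.58 CPM. With ATRA the medians were 12.1 CPM in scramble cells and 3.0 CPM in shKDM3B cells, and 6 genes had under 10 counts in both shKDM3B+ATRA libraries.

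The size of the difference varied widely among the genes. The log2 ratio of the mean shKDM3B to the mean scramble CPM, with 0.5 added to each count, had a median of -1.30 without ATRA, from -5.56 (CCL2) to -0.67 (ST5), against -0.02 over the 9813 genes. With ATRA the median was -1.55, from -5.24 (TMPRSS4) to -0.73 (CTNNB1), against 0.00 over the 9813 genes. The difference was larger with ATRA for 42 genes and larger without it for 18. It passed 4-fold in 12 genes without ATRA, in 17 with ATRA and in 8 in both treatments. It was under 2-fold in both treatments for 8 genes. The matching counts over the 9813 genes were not computed. More of the 9813 genes also passed the rule with ATRA (278, 2.83%) than without it (154, 1.57%). Larger differences with ATRA are therefore not read as a trait of the members. Against scramble+ATRA replicate 1 alone the members' median was 2.99-fold (1.54 to 40.5), and against replicate 2 alone 2.94-fold (1.54 to 35). RGS1 (1.507), PNPLA1 (1.517) and CRIPT (1.518) lay just inside the limit by the smaller of their gaps between groups, and H1FX (1.497), RCAN3 (1.494) and FGD3 (1.491) just outside it.

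**Figure D1:**
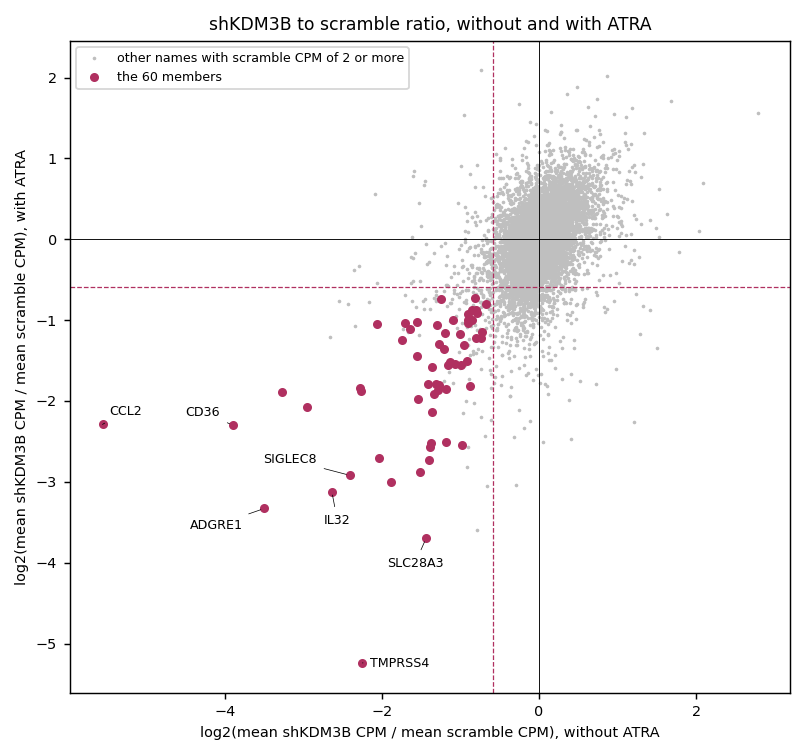
Each point is a gene, with its log2 ratio of mean shKDM3B to mean scramble CPM without ATRA on the x axis and with ATRA on the y axis (0.5 added to each count). The 60 members (red) lie below and to the left of the dashed lines at 1.5-fold, which follows from the rule that chose them, and CCL2 and TMPRSS4 lie farthest out at -5.56 without and -5.24 with ATRA.

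The phagocyte oxidase and the ITAM adaptors held CYBB, which had the highest mean level of the members in every group, and had modest ratios (median 2.29-fold lower without and 2.24-fold lower with ATRA over 5 names). CYBB, which encodes the membrane subunit that passes electrons to oxygen, was at 341 and 318 CPM in scramble and 192 and 170 CPM in shKDM3B cells. In the treated libraries it was at 1750 and 1888 CPM in scramble and 824 and 995 CPM in shKDM3B cells. Both shKDM3B+ATRA libraries were thus above every untreated library. The ratio of the mean CPM was 1.82-fold without and 2.0-fold with ATRA.

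NCF1, whose product assembles the oxidase at the membrane, was at 16.6 and 11.5 CPM in scramble, 4.68 and 7.54 in shKDM3B, 1094 and 697 in scramble+ATRA and 352 and 448 in shKDM3B+ATRA. It was 2.29-fold lower without and 2.24-fold lower with ATRA. Its near-identical copy NCF1C, annotated as a pseudogene, was at 9.28 and 3.80, 1.44 and 2.45, 667 and 495, and 201 and 286 CPM in the same order of groups. Without scramble replicate 1 the untreated log2 ratio of NCF1C was -0.96 rather than -1.74. Reads of these copies could be assigned to either, so their separate values are uncertain. With library sizes scaled by TMM or by DESeq2 size factors NCF1 no longer met the 1.5-fold limit.

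TYROBP (DAP12) and FCER1G, the adaptors that link activating receptors to the kinase SYK, were lower in the knockdown at levels well below those of CYBB. FCER1G was at 22.7 and 18.1 CPM in scramble and 6.38 and 9.54 CPM in shKDM3B cells, and with ATRA at 44.4 and 54.0 against 12.8 and 20 CPM. TYROBP was at 9.13 and 7.78 against 4.01 and 5.03 CPM, and with ATRA at 41.3 and 47.6 against 20 and 24.5 CPM. Of the 5 oxidase genes of the NADPH oxidase list that met the control level, CYBB and NCF1 passed in both treatments, NCF4 passed with ATRA only, and CYBA and RAC2 passed in neither.

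The 16 surface receptor and adhesion names, among them the pseudogene ADGRE4P, were the largest group, with medians of 2.61-fold lower without and 3.65-fold lower with ATRA. ADGRE1, an adhesion receptor found on eosinophils in humans, was at 6.95 and 6.97 CPM in scramble but 0.463 and 0.727 CPM in shKDM3B cells. With ATRA it was at 22.6 and 25.2 against 1.96 and 2.71 CPM. The scramble replicates lay close together, and the ratio was 11.7-fold without and 10.2-fold with ATRA. CD36, a scavenger receptor that takes up fatty acids, was at 14.3 and 5.96 against 0.617 and 0.697 CPM without ATRA and at 20.6 and 26.9 against 5.46 and 4.07 CPM with it. Its ratio was 15.4-fold without and 4.98-fold with ATRA, the former resting partly on scramble replicate 1: the log2 ratio of -3.90 was -3.14 without that library.

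SIGLEC8, an inhibitory lectin of eosinophils and mast cells, was low throughout. It was at 2.18 and 2.92 CPM in scramble, 0.411 and 0.515 in shKDM3B, 2.13 and 3.01 in scramble+ATRA and 0.103 and 0.485 in shKDM3B+ATRA. The last values rest on 1 and 5 counts, and the 8.75-fold ratio with ATRA has a 95% counting interval of 3.64 to 23.4. Its log2 ratio of -2.92 was -2.29 without shKDM3B+ATRA replicate 1 and -4.08 without replicate 2, a spread that the counting interval does not describe. The rule chose these ratios, so the counting intervals here and below describe counting error and test nothing. CNR2, the cannabinoid receptor of immune cells, was at 18.5 and 4.23 CPM in scramble and 0.926 and 1.39 CPM in shKDM3B cells. With ATRA the scramble libraries lay at 7.11 and 7.23 CPM and the shKDM3B libraries at 1.85 and 1.94 CPM. The untreated scramble replicates of CNR2 differed by more than 4-fold, and without replicate 1 its log2 ratio moved from -3.27 to -1.85, and without replicate 2 to -3.97.

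Receptors of the interleukin-1 family were represented by IL18RAP and IL1RL1, which lie 66.7 kb apart on chromosome 2. IL18RAP, a signalling chain of the interleukin-18 receptor, was at 12.4 and 13.5 against 2.11 and 3.18 CPM without ATRA and at 45.1 and 47.3 against 6.28 and 19.4 CPM with it. IL1RL1, whose ligand is an alarmin of the same family, was at 8.17 and 16.7 against 4.27 and 5.27 CPM without ATRA. With ATRA it was at 5.98 and 4.04 against 0.206 and 1.45 CPM. The levels of IL1RL1 spread widely within groups: its log2 ratio without ATRA was -1.38, or -0.77 without scramble replicate 2, and that of -2.52 with ATRA was -1.75 without shKDM3B+ATRA replicate 1 and -4.29 without replicate 2. The log2 ratio of IL18RAP with ATRA, -1.84, was -1.25 and -2.87 without these libraries. With DESeq2 size factors IL1RL1 no longer met the limit.

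FLT4, a receptor tyrosine kinase for vascular endothelial growth factors, was at 2.13 and 2.07 against 0.514 and 1.06 CPM and, with ATRA, at 14.9 and 9.46 against 1.75 and 1.84 CPM. Its ratio was 2.67-fold without and 6.79-fold with ATRA. TREML2, a receptor of the TREM family, was at 5.07 and 4.73 against 1.34 and 2.42 CPM and, with ATRA, at 26.8 and 18.4 against 4.43 and 5.72 CPM. CD48, the ligand of a SLAM-family receptor, was at 10.9 and 8.45 against 3.81 and 4.63 CPM and, with ATRA, at 13.7 and 16.6 against 1.54 and 3.68 CPM. For all 3 receptors the ratio was larger with ATRA. Without shKDM3B+ATRA replicate 2 the log2 ratio of CD48 with ATRA was -3.25 rather than -2.51. CD48 has 30.0% of its exon length overlapped by exons on the opposite strand, so its value is uncertain. Without strand, reads of such overlaps cannot be assigned.

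ITGA2B, the platelet integrin chain, was at 7.86 and 7.65 against 1.75 and 3.51 CPM without ATRA and at 4.56 and 4.22 against 1.65 and 2.62 CPM with it. CMTM3, a membrane protein that regulates receptor traffic, was the best expressed of the group at 102 and 98.7 against 44.1 and 62.4 CPM and, with ATRA, at 129 and 141 against 61.4 and 80.7 CPM. The remaining names of this group are given here to complete the account and were not picked by the naming rule. HAVCR2 (TIM-3), CD37 (a tetraspanin), ADGRE4P (annotated as a transcribed pseudogene of the ADGRE family, 14.2 kb from it on chromosome 19), FFAR4 (a receptor for long-chain fatty acids) and ROR2 (a receptor for Wnt ligands) had log2 ratios of -1.31, -1.27, -1.18, -1.64 and -0.92 without ATRA. With ATRA these were -1.79, -1.80, -1.85, -1.11 and -1.50. The ratio of HAVCR2 with ATRA rests on 4 and 13 counts in the shKDM3B libraries and was -2.73 without shKDM3B+ATRA replicate 2. CD37 has 10.8% of its exon length overlapped on the opposite strand. In the list of 29 granulocyte and monocyte surface genes, 19 met the control level, of which 3 were lower without ATRA and 6 with ATRA. CD36 and ADGRE1 were lower in both, TLR4 without ATRA only, and CSF3R, C5AR1, CXCR4 and ADGRE2 with ATRA only. The median log2 ratio of these 19 was -0.38 without and -0.57 with ATRA.

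**Figure D2:**
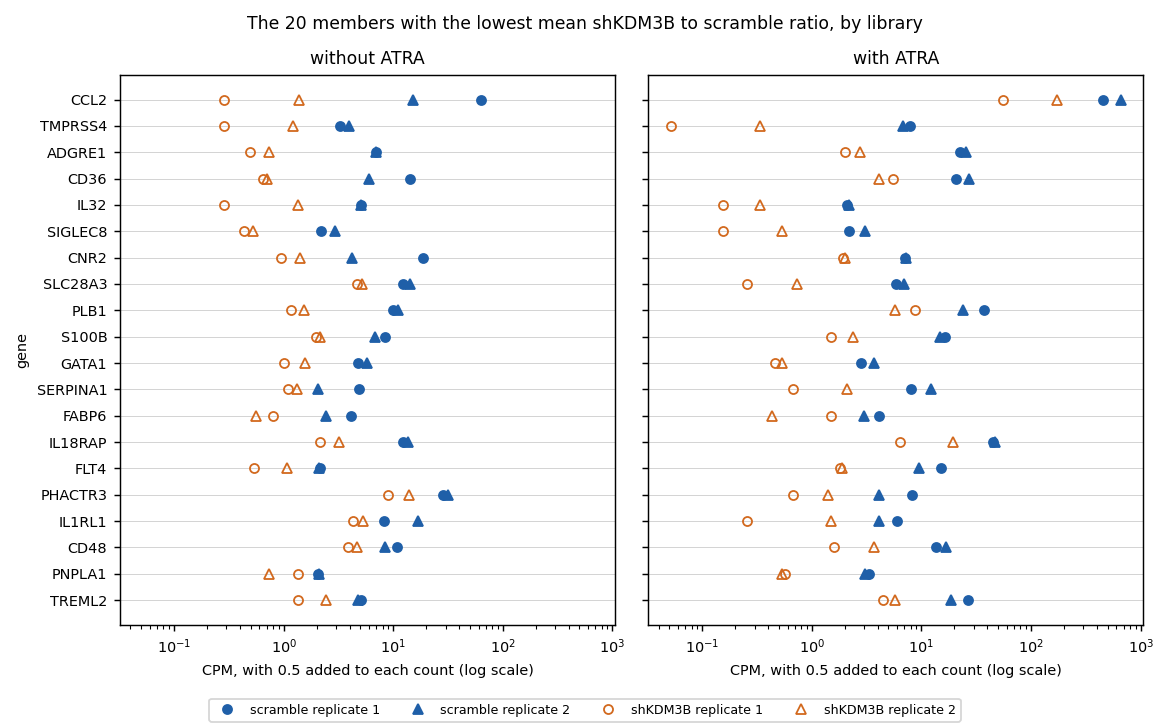
The 20 members with the lowest mean log2 ratio are listed by gene, with the CPM of every library on a log x axis (0.5 added to each count), without ATRA on the left and with ATRA on the right. Filled blue marks are scramble libraries and open orange marks shKDM3B libraries, and they do not overlap for any gene shown, which the rule required. CCL2 reaches 63.0 CPM in an untreated and 662 CPM in a treated scramble library.

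Among 9 secreted, granule and calcium-binding proteins, the medians were 2.87-fold lower without and 4.89-fold lower with ATRA. CCL2, the chemokine that draws monocytes, was at 63.0 and 15.1 CPM in scramble and 0.257 and 1.36 CPM in shKDM3B cells, the latter from 5 and 45 counts. With ATRA it was at 456 and 662 CPM in scramble and 56.0 and 173 CPM in shKDM3B cells. The ratio of the means was 48.2-fold without and 4.89-fold with ATRA, with a wide spread between the untreated replicates of both groups: the log2 ratio of -5.56 was -4.19 and -6.25 without scramble replicates 1 and 2 and -4.83 and -7.11 without shKDM3B replicates 1 and 2. With ATRA the log2 ratio of -2.29 was -1.69 without shKDM3B+ATRA replicate 1 and -3.32 without replicate 2.

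TMPRSS4, a membrane serine protease, was at 3.25 and 3.89 CPM in scramble and 0.257 and 1.21 CPM in shKDM3B cells. Treated scramble cells had it at 7.88 and 6.80 CPM, whereas the shKDM3B libraries held 0 and 3 counts. The 50.5-fold ratio of the means with ATRA therefore has a 95% counting interval of 16.8 to 243. Its log2 ratio of -5.24 with ATRA was -4.44 without shKDM3B+ATRA replicate 1 and -7.16 without replicate 2, and that of -2.25 without ATRA was -1.55 and -3.67 without shKDM3B replicates 1 and 2. IL32, a cytokine of leukocytes, was at 5.02 and 5.07 against 0.257 and 1.33 CPM without ATRA and at 2.07 and 2.15 against 0.103 and 0.291 CPM with it, the last from 1 and 3 counts. Its ratio with ATRA was 10.7-fold, with a counting interval of 3.91 to 39.9. Its log2 ratio of -2.64 without ATRA was -1.91 without shKDM3B replicate 1 and -4.16 without replicate 2, and that of -3.12 with ATRA was -3.80 without shKDM3B+ATRA replicate 2.

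SERPINA1, the antiprotease alpha-1 antitrypsin, was at 4.87 and 2.03 against 1.08 and 1.30 CPM without ATRA and at 7.94 and 12.2 against 0.618 and 2.04 CPM with it. Without scramble replicate 1 its untreated log2 ratio was -0.76 rather than -1.52, and its log2 ratio of -2.88 with ATRA was -2.28 without shKDM3B+ATRA replicate 1 and -3.92 without replicate 2. SERPINA1 left the set under DESeq2 size factors. RNASE2, a ribonuclease of granules, was among the best-expressed members at 181 and 179 against 86.8 and 118 CPM, and at 60.9 and 60.6 against 23.1 and 28.9 CPM with ATRA. It was 1.76-fold lower without and 2.34-fold lower with ATRA, and it left the set under TMM or DESeq2 scaling. RNASE2 was also the only member in the azurophil granule list, of which 7 genes met the control level.

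Both S100 members are calcium-binding proteins. S100B was at 8.42 and 6.76 against 1.95 and 2.15 CPM without ATRA and at 16.2 and 14.7 against 1.44 and 2.33 CPM with it. S100A6 was at 15 and 12 against 6.07 and 6.72 CPM and, with ATRA, at 6.52 and 7.05 against 2.06 and 2.52 CPM. The ratio of S100B was 3.70-fold without and 8.21-fold with ATRA, and that of S100A6 2.10-fold and 2.96-fold. Of the 6 genes of the S100 list at the control level, S100P was lower without ATRA only and S100A9 with ATRA only. COL9A2, a collagen chain, and ACRBP, a proacrosin-binding protein, had log2 ratios of -0.88 and -1.0 without and -1.81 and -1.55 with ATRA. Without shKDM3B+ATRA replicate 2 the log2 ratio of ACRBP with ATRA was -2.24.

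The 5 lipid enzymes and carriers had the largest median difference without ATRA, 4.19-fold lower, and were 3.67-fold lower with ATRA. PLB1, a phospholipase, was at 9.89 and 11 against 1.13 and 1.51 CPM without ATRA and at 36.8 and 23.8 against 8.65 and 5.72 CPM with it. Its ratio was 7.89-fold without and 4.22-fold with ATRA. FABP6, a bile acid carrier, was at 4.11 and 2.41 against 0.771 and 0.545 CPM and, with ATRA, at 4.09 and 2.93 against 1.44 and 0.388 CPM. The log2 ratio of FABP6 with ATRA, -1.88, was -3.02 without shKDM3B+ATRA replicate 1 and -1.25 without replicate 2. PNPLA1, an acyltransferase of the patatin family, was at 2.03 and 2.07 against 1.34 and 0.727 CPM and, with ATRA, at 3.32 and 3.01 against 0.515 and 0.485 CPM. PNPLA1 was thus close to the limit without ATRA, which it missed with DESeq2 size factors, and 6.33-fold lower with it, with a counting interval of 3.32 to 13.8. ABHD17C, a depalmitoylase, and PITPNC1, a phosphatidylinositol transfer protein, had log2 ratios of -2.07 and -0.85 without and -1.05 and -0.87 with ATRA. Without scramble replicate 1 the untreated log2 ratio of ABHD17C was -1.26.

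SLC28A3, a concentrative nucleoside transporter, showed the widest change of ratio after TMPRSS4 and CCL2. It was at 12.4 and 14.1 CPM in scramble and 4.63 and 5.12 CPM in shKDM3B cells. With ATRA it was at 5.86 and 6.88 against 0.206 and 0.678 CPM, the latter from 2 and 7 counts. The ratio was 2.71-fold without and 14.4-fold with ATRA, the latter with a counting interval of 7.20 to 31.1, and without shKDM3B+ATRA replicate 2 the log2 ratio with ATRA moved from -3.70 to -4.64. The choline transporter SLC44A2 and the peptide transporter SLC15A3 had log2 ratios of -1.13 and -0.96 without and -1.52 and -1.31 with ATRA. SLC44A2 was at 6.74 and 15.6 CPM in untreated shKDM3B cells, and without shKDM3B replicate 2 its untreated log2 ratio was -1.85.

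Of 6 transcription regulators, GATA1, the master factor of the erythroid, megakaryocyte, mast cell and eosinophil lineages, had the largest ratio. It was at 4.72 and 5.75 CPM in scramble and 0.977 and 1.54 CPM in shKDM3B cells, and with ATRA at 2.78 and 3.61 against 0.412 and 0.485 CPM. The ratio was 4.15-fold without and 7.14-fold with ATRA, the latter resting on 4 and 5 counts, with a counting interval of 3.50 to 15.7. CTNNB1, the transcriptional coactivator beta-catenin of the Wnt pathway, was at 227 and 196 against 115 and 124 CPM and, with ATRA, at 266 and 250 against 156 and 155 CPM. Its ratio, 1.77-fold without and 1.66-fold with ATRA, was among the smallest. NFATC4, a calcineurin-dependent factor, was at 21.2 and 23.5 against 7.87 and 7.45 CPM and, with ATRA, at 4.21 and 6.80 against 1.96 and 0.775 CPM. Without shKDM3B+ATRA replicate 1 its log2 ratio with ATRA was -2.75 rather than -1.97. BATF and BACH1, both bZIP proteins, and the homeobox gene HOXC6 had log2 ratios of -1.29, -0.79 and -0.73 without and -1.86, -0.91 and -1.15 with ATRA. BATF was at 1.65 and 4.94 CPM in the shKDM3B+ATRA libraries, and without replicate 2 its log2 ratio with ATRA was -2.83.

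No member belonged to the list of myeloid transcription factors, of which 10 genes met the control level, 0 were lower without ATRA and 1, CEBPB, was lower with it. Of 8 genes at the control level in the erythroid, megakaryocyte and mast cell list, GATA1 and ITGA2B were lower in both treatments and HDC with ATRA only. CTNNB1 was the only member among the 29 genes of the study's signature, a list chosen on these samples and so not independent of them. In that signature 23 genes met the control level, 7 were lower without and 3 with ATRA. None of the 9 genes of the H3K9 demethylase list, the 9 neighbours of KDM3B on chromosome 5 or the 19 G1/S and replication genes at the control level was lower in either treatment. Of 4 chemokines and cytokines, CCL2 was a member and OSM was lower with ATRA only. Of 6 lipid mediator enzymes, PLB1 was a member, ALOX5AP was lower without and TBXAS1 with ATRA only. The specific and gelatinase granule list had 2 genes at that level, of which FCN1 was lower with ATRA only, and the vesicle traffic list 13, with RAB27B and SYNJ2 lower without and RAB20 with ATRA only.

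Among 11 genes of intracellular signalling, cytoskeleton, traffic and survival, the medians were 2.43-fold lower without and 2.25-fold lower with ATRA. BCL2A1, shown above with its PU.1 core, was at 5.38 and 3.38 against 1.85 and 1.73 CPM without ATRA and at 217 and 218 against 65.9 and 110.0 CPM with it. RGS1, a brake on G protein signalling of chemokine receptors, was at 7.30 and 3.09 against 1.65 and 1.51 CPM and, with ATRA, at 49.2 and 58.5 against 19.9 and 32.7 CPM. PHACTR3, a regulator of protein phosphatase and actin, was at 28.5 and 31.5 against 8.85 and 14.0 CPM and, with ATRA, at 8.23 and 4.04 against 0.618 and 1.36 CPM. Left-out libraries moved RGS1 from -1.71 to -0.96 without ATRA (scramble replicate 1) and PHACTR3 from -2.57 to -1.98 (scramble+ATRA replicate 1) or -3.21 (shKDM3B+ATRA replicate 2) with ATRA, as log2 ratios. DESeq2 size factors took RGS1 out of the set. BCL2A1 and RGS1 were thus low without ATRA and far higher with it, and PHACTR3 ran the other way. CRIPT, a small protein bound to synaptic scaffolds, was at 13.4 and 9.76 against 4.78 and 4.60 CPM and, with ATRA, at 13.7 and 21.5 against 7.83 and 9.01 CPM.

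DENND1C and ARHGAP25, the other genes of this group with a PU.1 core, had higher levels than BCL2A1 and RGS1 without ATRA. DENND1C was at 36.2 and 36.8 against 18.8 and 22.7 CPM without ATRA and at 86.8 and 65.2 against 42.3 and 40.5 CPM with it. ARHGAP25 was at 29.6 and 30.7 against 16.6 and 19.4 CPM and, with ATRA, at 45.4 and 37.7 against 17.4 and 18.3 CPM, and it left the set under TMM or DESeq2 scaling. AIF1L (an actin-binding protein), ABI3 (an adaptor of the WAVE complex family), GNGT2 (a G protein gamma chain), SYT11 (a synaptotagmin) and ST5 (also DENND2B) had log2 ratios between -0.67 and -1.42 without and between -0.80 and -1.91 with ATRA. ST5 left the set under TMM or DESeq2 scaling. GNGT2 and ABI3 overlap on chromosome 17. The remaining 5 names were CCDC96, the lambda-crystallin CRYL1, KIAA1211L and the non-coding RNAs LINC01088 and PCED1B-AS1, with medians of 2.31-fold lower without and 2.57-fold lower with ATRA. PCED1B-AS1 was the best expressed of these at 56.2 and 38.2 against 17.7 and 23.2 CPM and, with ATRA, 115 and 131 against 39.8 and 56.0 CPM.

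**Figure D3:**
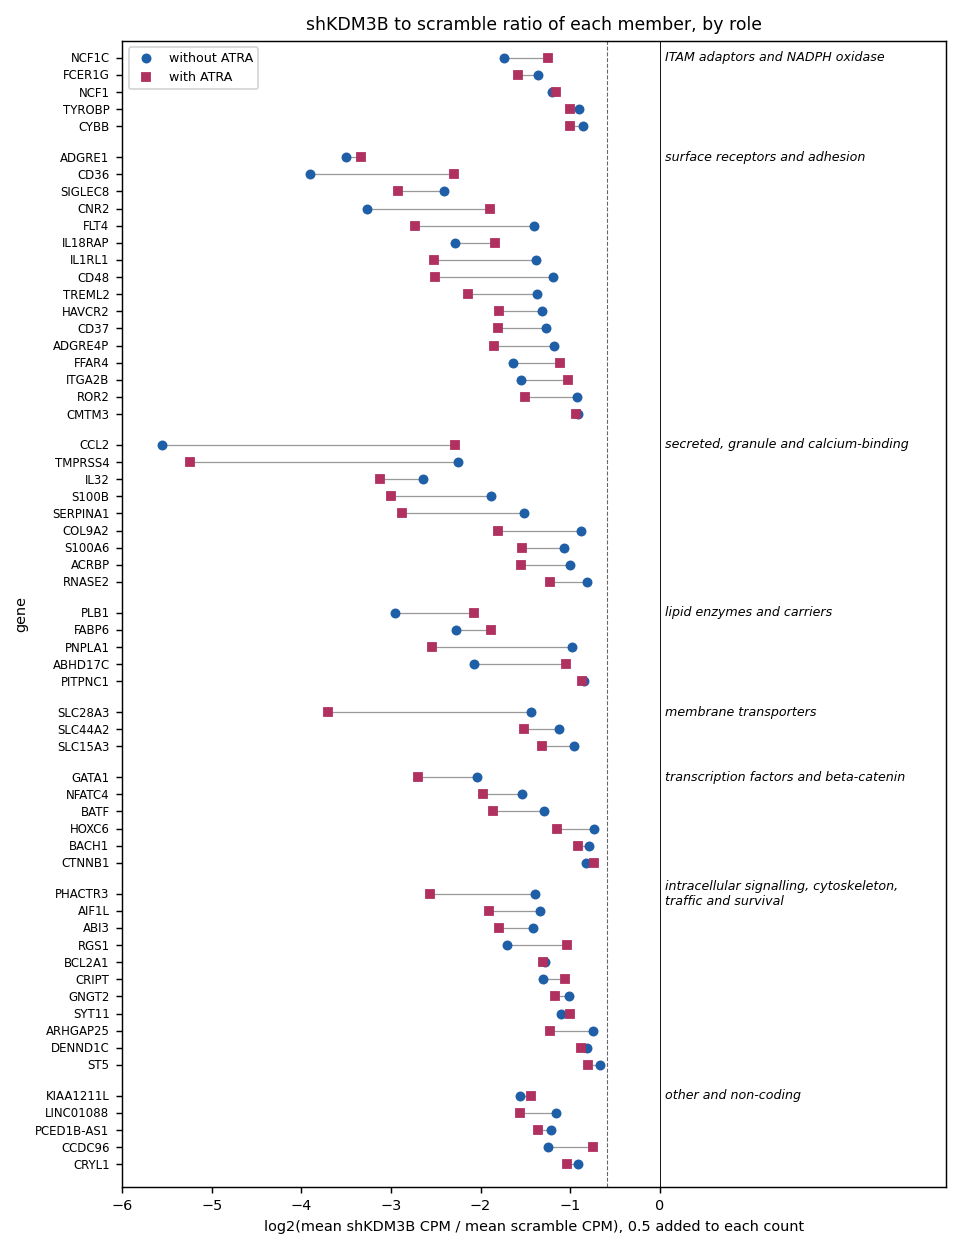
For each of the 60 members, grouped by role, the log2 ratio of mean shKDM3B to mean scramble CPM (x axis, 0.5 added to each count) is shown without ATRA (blue circles) and with ATRA (red squares), joined by a grey line. The dashed line marks 1.5-fold. The oxidase and ITAM group lies between -0.86 and -1.74, and the longest lines are those of CCL2, TMPRSS4 and SLC28A3.

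The 60 genes were spread over 20 chromosomes, with at most 7 on a chromosome (1 and 19), and 8 pairs lay within 1 Mb of each other. Of the 58 matched in GENCODE v44, 54 are protein-coding. Exons on the opposite strand covered over 10% of the exon length in 2 members (3.45% of those matched) and in 15% of the 9418 matched genes at the control level.

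The rule did not compare treated with untreated libraries, so the response of the 60 genes to ATRA could be tested. The rule did set limits on their levels in both treatments, so the choice is not fully separate from the response. The averaged contrast compares treated with untreated libraries over scramble and shKDM3B cells together. In a balanced design with equal spread in every library it is uncorrelated with the knockdown differences behind the choice. These libraries differ in depth and in the share of read pairs outside genes, so that may not hold here. A gene was called at an adjusted p under 0.05 (edgeR's quasi-likelihood test, Benjamini-Hochberg over all genes) and a fold change of at least 1.5. Of the 60 members, 26 rose (43.3%) and 8 fell (13.3%), beside 19.6% rising and 14.8% falling among all 13528 genes tested. Among the 9813 genes at the control level, from which the members came, 13.4% rose and 14.1% fell. The share that rose was thus above both of these and the share that fell was near both. The median log2 change was 0.42 in the members and 0.00 in all genes tested. Since treated and untreated files list different names, treatment and name set cannot be told apart. With each library left out in turn, 22 to 26 members rose and 6 to 9 fell, while the share of all genes tested ran from 12.3 to 22.8% rising and from 9.23 to 18.9% falling, both highest without scramble+ATRA replicate 1.

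NCF1C, NCF1, BCL2A1, CCL2 and RGS1 rose most with ATRA. In edgeR's averaged contrast NCF1 rose 66.9-fold (log2 change 6.06, SE 0.27, Benjamini-Hochberg adjusted p = 1.5e-05), and its copy NCF1C 109-fold (log2 change 6.76, SE 0.37, adjusted p = 3.3e-05). BCL2A1 rose 51.6-fold (log2 change 5.69, SE 0.25, edgeR adjusted p = 1.5e-05). CCL2 rose 44.6-fold with a larger error (log2 change 5.48, SE 0.69, edgeR adjusted p = 0.00117), its log2 change running from 4.96 to 6.42 with a library left out (6.16 without scramble replicate 1 and 6.42 without shKDM3B replicate 2). RGS1 rose 13.7-fold (log2 change 3.78, SE 0.32, edgeR adjusted p = 0.000197). CYBB rose 5.49-fold and TYROBP 5.30-fold, and FCER1G rose 2.32-fold. Of the 5 genes whose upstream sequence holds a PU.1 core, BCL2A1, NCF1, TYROBP and DENND1C rose, and ARHGAP25 had a log2 change of 0.28 (SE 0.11, edgeR adjusted p = 0.0784). These 5 were picked by their sequence after values had been seen, and only 43 of the members had a window to search. Of all members 43.3% rose, and of the 9813 genes at the control level 13.4%. The share among all genes with this core was not computed, and no link between core and response was tested.

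ADGRE1 (3.78-fold), CD36 (4.28-fold), IL18RAP (4.32-fold), FLT4 (3.74-fold), PLB1 (4.10-fold) and TREML2 (3.65-fold) were also among the genes that rose in the averaged contrast. PHACTR3 fell most, by 2.84 on the log2 scale (SE 0.34, edgeR adjusted p = 0.000891). LINC01088 fell by 2.38 (SE 0.21, edgeR adjusted p = 0.000265), NFATC4 by 2.20 (SE 0.30, adjusted p = 0.00180) and RNASE2 by 1.71 (SE 0.14, adjusted p = 0.000170). GATA1, IL1RL1, S100A6 and SLC28A3 also fell. The log2 change of IL1RL1, -1.84, was -2.84 without shKDM3B+ATRA replicate 2. The 26 members that did not pass included CTNNB1, whose log2 change of 0.39 (edgeR adjusted p = 0.0150) was under 1.5-fold, and TMPRSS4, IL32, SIGLEC8, CNR2 and CD48.

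The contrasts within each kind of cell use library values that the rule also used, each relative to the other kind of cell, so their counts are less independent of the choice than those of the averaged contrast. Within scramble cells alone, 20 members rose and 4 fell of 60 tested, beside 7.84% rising and 5.06% falling among 12429 genes, and 6.34% and 3.69% among the 9813 genes at the control level. Each fit with a library left out sets 1 library against 2, with 1 residual degree of freedom, and assumes that the lone library varies like the others. Without scramble replicate 1, or without scramble replicate 2, edgeR called 0 of all genes. At an unadjusted p under 0.05 the first of these fits gave 23 members higher and 5 lower, beside 6.79% higher and 5.11% lower among all genes (1578 genes in all). The second gave 20 and 5, beside 6.94% and 4.11% (1462 genes). The members' median log2 change was 0.84 and 0.67 in these fits against 0.74 with all libraries, and 46 and 44 members had a positive change against 44. Without scramble+ATRA replicate 1, edgeR called 29 members higher and 5 lower, beside 19.2% and 13.8% of all genes. Without scramble+ATRA replicate 2, which leaves libraries with a like share of reads outside genes, 24 members rose and 5 fell, beside 10.2% rising and 7.64% falling among all genes (2306 called genes against 1604 with all libraries). Within shKDM3B cells, 23 members rose and 8 fell of the 57 tested, beside 23.0% rising and 17.3% falling among 12756 genes, and 16.6% and 16.4% among those of them at the control level. IL32, SIGLEC8 and TMPRSS4 were too low in shKDM3B cells to be tested.

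Of the 57 members tested in both kinds of cell, 19 rose in both, beside 6.98% of the 11968 genes tested in both. LINC01088, NFATC4, PHACTR3 and RNASE2 fell in both, beside 4.70% of those genes. These shares are not limited to genes at the control level, which every member reached. No member was called in opposite directions. S100B was called higher in scramble cells only, CCDC96, CD36, CRIPT and KIAA1211L higher in shKDM3B cells only, and GATA1, IL1RL1, S100A6 and SLC28A3 lower in shKDM3B cells only. A difference in response between the cells is the same quantity as a difference between the knockdown ratios with and without ATRA, which chose the genes, and it was not tested. The call of FLT4 and GATA1 in shKDM3B cells and that of S100B in scramble cells were close to the threshold (edgeR adjusted p of 0.0484, 0.0438 and 0.0469). The ATRA log2 change of CCL2 moved with single libraries in both kinds of cell. In scramble cells it was 3.97, or 5.30 and 3.27 without scramble replicates 1 and 2, in fits that called 0 of all genes. In shKDM3B cells it was 7.04, or 6.41 and 8.85 without shKDM3B replicates 1 and 2 and 7.63 and 6.03 without shKDM3B+ATRA replicates 1 and 2. That of NCF1C in scramble cells, 6.60, was 7.34 without scramble replicate 1.

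**Figure D4:**
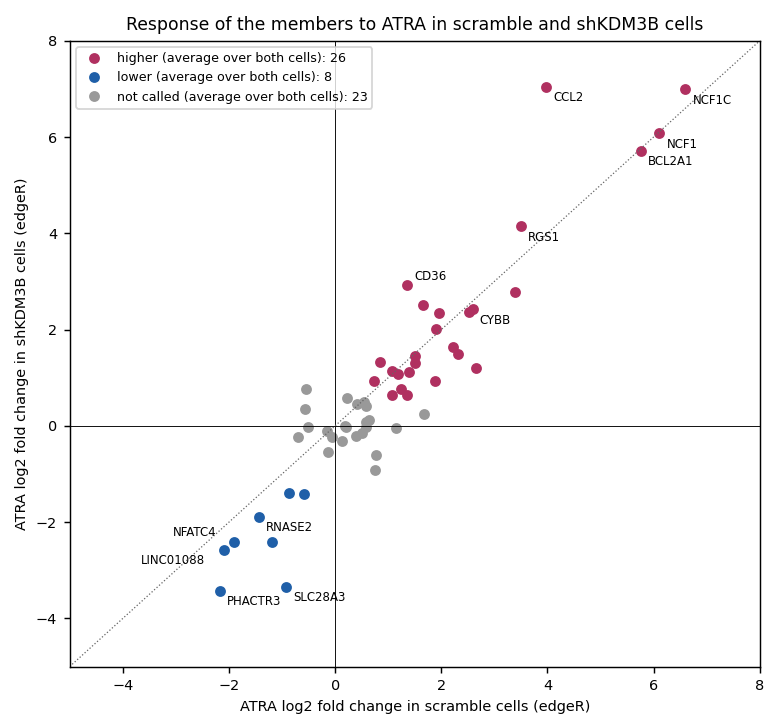
Each point is one of the 57 members tested in both kinds of cell, with its ATRA log2 fold change in scramble cells on the x axis and in shKDM3B cells on the y axis (edgeR), coloured by its call in the averaged contrast. The dotted line marks equal change. NCF1C, NCF1 and BCL2A1 lie at the upper end near the line, whereas CCL2, at 3.97 and 7.04, lies above it.

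The levels of treated knockdown cells were also set beside those of untreated scramble cells. The rule bears on this comparison, since it required low values in shKDM3B+ATRA and high values in scramble cells, so its counts are a description. In 10 members, BCL2A1, CD37, CYBB, DENND1C, NCF1, NCF1C, PITPNC1, RGS1, ROR2 and TYROBP, both shKDM3B+ATRA libraries lay above both untreated scramble libraries, as they did in 32.2% of the 9813 genes at the control level. In 41 members both lay below them, as in 43.3% of the 9813 genes, and nothing is read from the difference. The 41 included ADGRE1, CD36, GATA1, PLB1, S100B and SLC28A3. In the other 9 the libraries overlapped. ADGRE1, for example, rose with ATRA in shKDM3B cells (edgeR log2 change 2.01, SE 0.42, adjusted p = 0.00360), yet reached only 1.96 and 2.71 CPM beside 6.95 and 6.97 CPM in untreated scramble cells.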

How the data were processed

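RNA-seq was analysed for 8 NB4 libraries, 2 in each of 4 groups taken from the labels. Per the labels and the study's methods, the authors used Trim Galore for trimming, HISAT2 for alignment to hg38 and HTSeq for counting reads on genes. Versions are not given in the sources used here. The deposited files hold unnormalised whole-number counts per gene name and 5 summary lines, which were left out of library sizes. Untreated files list 56470 names and ATRA files 56609. The 37526 names in all files were used.

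CPM were computed from these counts, and genes were chosen by the rule stated at the start of the results. Members and gene lists were chosen with earlier results of these data known. ATRA contrasts were fitted with edgeR 4.0.16 in R 4.3.3 (filterByExpr, TMM, quasi-likelihood test), each kind of cell in its own fit and the averaged contrast over all libraries. A call needed a Benjamini-Hochberg adjusted p under 0.05 and a fold change of at least 1.5. The standard error was the log2 change divided by the square root of F. The test was checked on simulated data. The check covered the contrasts within each kind of cell and not the averaged contrast. It recovered only part of the changes put in, and fewer in scramble than in shKDM3B cells. Folds of single genes between scramble and shKDM3B cells are ratios of mean CPM, and those of the ATRA contrasts come from edgeR's log2 change. Counting intervals are exact Clopper-Pearson 95% intervals on the summed counts of each group. They cover counting error only, since reads carry no molecular identifiers. They leave out the spread between libraries and, on ratios that the rule chose, are no test. Positions and exon overlaps came from GENCODE v44 (bedtools 2.31.1), in which 58 members matched.

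Named members were the 20 with the lowest mean log2 ratio, the 8 with the highest level, those in the fixed lists, the 5 largest rises and up to 5 largest falls with ATRA in scramble cells, and the 3 names on either side of the limit. The rule named none of the other 27 members. They are given to account for every gene, and of these TYROBP, FCER1G, DENND1C, ARHGAP25 and PCED1B-AS1 were described in more detail after their values were seen. Alternatives were other scalings, limits, minimum levels and filters, DESeq2 1.42.0, unadjusted p-values, the replicate block, and each library left out in turn. Some marker genes are not reported here.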

Additional observations from a re-analysis of the deposited data

Results flagged for a closer look

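In CD48, every scramble+ATRA library was above both untreated scramble libraries (ratio of the mean CPM 1.56), and every shKDM3B+ATRA library was below both untreated shKDM3B libraries (ratio 0.619, or 0.366 without shKDM3B+ATRA replicate 2 and 0.873 without replicate 1). PNPLA1 showed the same pattern, with ratios of 1.54 in scramble and 0.484 in shKDM3B cells (0.374 to 0.688 with a library left out). The difference between the cells was not tested, since it is made of the knockdown differences that chose both genes. Neither gene was called for ATRA in either kind of cell by edgeR, and CD48 overlaps exons on the opposite strand.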

How the results depend on the processing

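The number of genes that met the knockdown rule depended on its limits. It was 17 with a 2-fold limit, 147 with a looser limit, 165 with no minimum control level and 13 with a minimum of 10 CPM, and 64 to 119 with a library left out, which by construction relaxes the rule. TMM scaling gave 60 names, 56 of them members (ARHGAP25, NCF1, RNASE2 and ST5 were lost), and DESeq2 size factors gave 54, of which 52 were members (IL1RL1, PNPLA1, RGS1 and SERPINA1 were lost as well). For ATRA in scramble cells, leaving out a library gave 0 to 29 members higher, 0 to 5 lower and 0 to 4411 genes in all. These fits have 1 residual degree of freedom, and the counts of 0 came from those without a scramble library, where the members' median log2 change was 0.84 and 0.67 against 0.74. Unadjusted p-values gave 8 members lower and 3213 genes in all. The ATRA changes of named members reversed under none of the alternatives run (of the recomputed values 546 kept their side of the threshold and 59 lost a call, most often GATA1, FLT4 and CRIPT), and the cause was not tested. Library depth limits the members with fewest counts in shKDM3B+ATRA. The replicate numbers were not shown to pair the libraries: same-numbered libraries had correlated deviations of 0.390, 0.0133, -0.0939 and 0.159 in the 4 pairs of groups. With the replicate block, 19 members rose and 4 fell in scramble cells (beside 7.07 and 4.14% of all genes), 23 and 7 in shKDM3B cells (23.8 and 17.9%), and 26 and 8 in the averaged contrast (17.8 and 14.1%).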
